A study of Rattus norvegicus with 4 samples.

Results

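Kinesins are motor proteins that walk along microtubules by hydrolysing ATP, and their transcripts were compared between ear skin given virus carrying Fgf7 and ear skin given control virus. The members were the protein-coding rows of the count table whose symbol was Kif or Kifc followed by a number and, for Kif, an optional letter, which gave 41 of 54532 rows. They were sorted by known role into 13 spindle kinesins, 15 cargo kinesins, 6 cilium kinesins and 7 others. Of the 41 kinesins, 34 had a count in at least 1 library, and 13 had enough counts to be tested.

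The libraries came from 2 SD (Sprague Dawley) rats, each with AAV-Fgf7 injected into 1 ear (labelled as Fgf7 overexpression) and control AAV into the other (labelled wt), and tissue was taken from the injection sites on day 3. AAV, adeno-associated virus, is a small DNA virus used to carry genes into cells, and Fgf7 encodes a growth factor secreted by mesenchymal cells that acts on epithelial cells. Both groups had therefore been injected with virus, and each held 2 libraries, 1 per rat. The promoter that drives Fgf7, and the age and the sex of the rats, are not stated in the labels. The sample titles and the series' design text disagree on which ear received which virus, so ear side was not used, and the number in its name placed the second AAV-Fgf7 column with rat 2. Library totals were 1299136 to 1601321 counts, and the count rows carry mouse gene identifiers although the samples are rat. The mouse build of the listed positions is not named in the labels or the file.

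A cell that divides builds a spindle of microtubules, and one set of kinesins slides, shortens or crosslinks those microtubules, moves chromosomes and directs the final cleavage of the cell. Another set carries vesicles, organelles and protein complexes through cells that need not be dividing. Transcripts of many spindle kinesins are made mainly in the later phases of the cell cycle, so that in skin they are found mostly in dividing basal and hair follicle keratinocytes, whereas several cargo kinesins are made in nearly every cell.

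Summed over their members, spindle kinesins stood higher in the AAV-Fgf7 ear than in the control ear of both rats, whereas cargo kinesins stood higher in 1 rat and lower in the other, and no single kinesin passed the test over all genes. Levels are given in CPM, which are counts relative to the library total after TMM scaling, a correction for the makeup of each library. Summed over all 13 spindle kinesins, tested or not, the level was 41.0 and 30.0 CPM with control virus in rats 1 and 2, and 63.6 and 115 CPM with AAV-Fgf7. The exact 95% binomial (Clopper-Pearson) intervals of these sums, which cover counting error only, were 30.8 to 53.5, 21.8 to 40.1, 51.1 to 78.1 and 98.1 to 134 CPM. The groups did not overlap, although the intervals of the control and AAV-Fgf7 libraries of rat 1 did, and the AAV-Fgf7 library of rat 2 was the highest. The means were 35.5 ± 7.81 and 89.2 ± 36.3 CPM (SD, n = 2), a ratio of 2.52. Within rats the AAV-Fgf7 ear held 1.55 times the control level in rat 1 and 3.84 times in rat 2.

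Summed over all 15 cargo kinesins, the level was 494 and 563 CPM with control virus and 581 and 483 CPM with AAV-Fgf7. The groups overlapped, with the AAV-Fgf7 ear at 1.18 times the control in rat 1 and at 0.858 times in rat 2. The means were 528 ± 49.2 and 532 ± 69.3 CPM (SD, n = 2), a ratio of 1.01. Spindle kinesins thus made up 7.49% (exact 95% binomial interval 5.68% to 9.66%) and 4.93% (3.62% to 6.54%) of all kinesin counts with control virus in rats 1 and 2. With AAV-Fgf7 they made up 9.65% (7.83% to 11.7%) and 18.7% (16.2% to 21.5%). This share does not depend on how libraries are scaled, and it was higher in the AAV-Fgf7 ear of both rats, with overlapping intervals in rat 1. No test was made of these sums, since the genes were chosen with earlier results of these data known. Even with all 4 libraries taken as independent, an exact two-sided permutation test with 2 libraries per group cannot give a p below 0.33. Its floor is higher still when permutations are kept within rats.

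**Figure D1:**
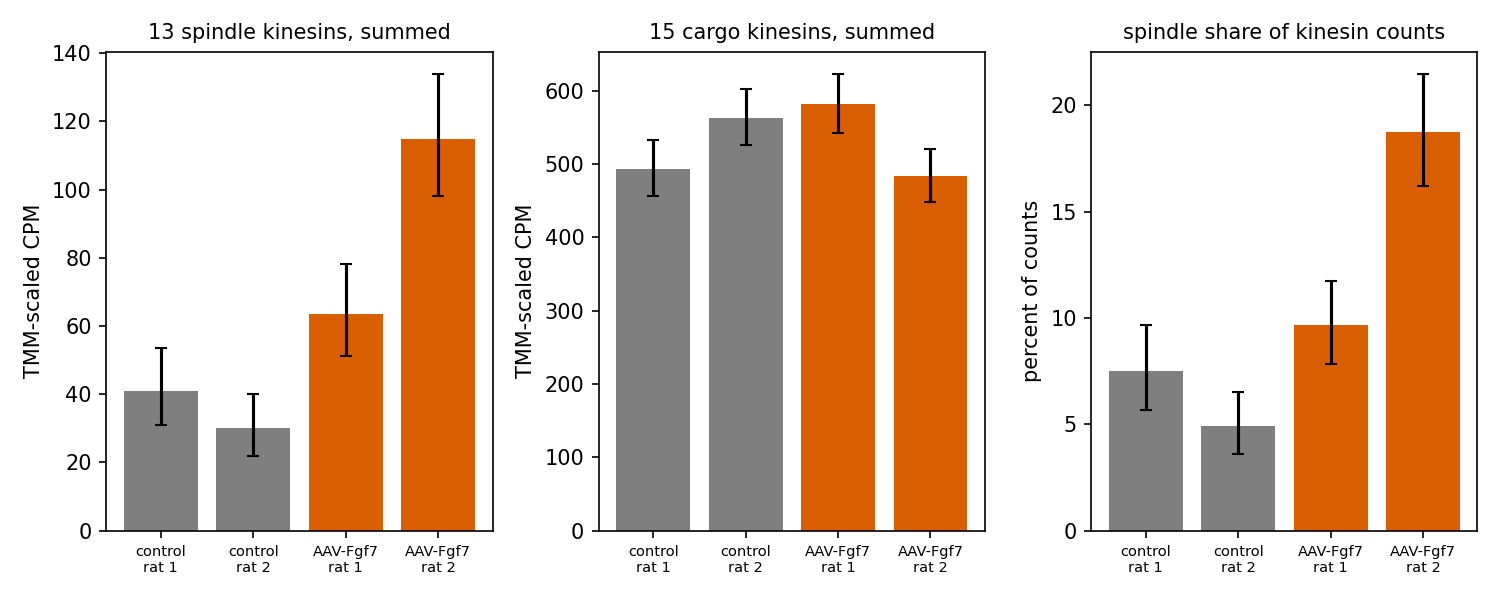
Summed level of the 13 spindle kinesins and of the 15 cargo kinesins (TMM-scaled CPM), and the spindle share of kinesin counts (percent), in each library; bars are single libraries and error bars are exact 95% binomial intervals. The spindle sum is 63.6 and 115 CPM with AAV-Fgf7 against 41.0 and 30.0 CPM in the controls, while the cargo sums of the groups overlap.

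The summed list taken as markers of basal keratinocytes, the dividing layer of the epidermis, was also higher in the AAV-Fgf7 ear of both rats. In bulk tissue, more cells of a type and more RNA per cell cannot be told apart. The 10 basal markers, all with counts, summed to 1298 and 1247 CPM with control virus and 1990 and 3742 CPM with AAV-Fgf7. The ratio of the means was 2.25, and Krt14, Krt5 and Sfn made up most of the difference between the means. Sfn, which is not confined to the basal layer, stood at 128 and 219 CPM with control virus and 448 and 568 CPM with AAV-Fgf7. Of the 9 tested basal markers, 7 had positive and 2 (Dst and Lamb3) negative log2 fold changes with a median of 0.75, and 4 lay above both controls, beside 14.8% of all tested genes. In rat 1, Krt15 (0.87 times the control ear), Itgb4 (0.93), Itga6 (0.99) and the untested Col17a1 (0.83) were not above the control. The other listed markers were above it in that rat. Per 1000 counts of the basal list there were 31.6 and 24.0 spindle kinesin counts with control virus and 31.9 and 30.7 with AAV-Fgf7. These rates rest on the few most abundant keratinocyte genes, Sfn among them, and were not taken without Sfn. The part of keratinocyte content in the spindle kinesin result was not tested. The hair follicle list, with Krt35 and Krt72 of its 13 found genes at 0, summed to 66.1 and 1486 CPM with control virus and 4586 and 236 CPM with AAV-Fgf7. It was highest in the AAV-Fgf7 ear of rat 1, and the spindle kinesins in that of rat 2, which had less follicle signal than the control ear of the same rat. The skeletal muscle and cartilage lists, with Tnnc2 and Matn1 at 0, also had overlapping groups, cartilage at 550 and 2037 CPM with control virus and 1045 and 618 CPM with AAV-Fgf7.

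The quasi-likelihood test of edgeR over 6370 genes called 0 genes (0% of those tested) at an adjusted p under 0.05, and the adjusted p of the tested kinesins was 0.9996 or higher. At an unadjusted p under 0.05, 2 kinesins (Kif11 and Kif20a) were higher with AAV-Fgf7 and 0 were lower, where 1.71% of all tested genes were higher and 0.612% lower. Both, like Kif23, were named when the genes were chosen with earlier results of these data known. This count is therefore not independent of that choice. DESeq2 and limma-voom also called 0 kinesins, with 2 each at an unadjusted p under 0.05. Every log2 fold change below is therefore a measured difference that did not pass the test.

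Among the spindle motors, Kif11 is the tetrameric motor that pushes the spindle poles apart, and its row, ENSMUSG00000012443, is listed on mouse chromosome 19 from 37376403 to 37421859. It had raw counts of 10 and 9 with control virus (rats 1 and 2) and of 25 and 54 with AAV-Fgf7, or 7.59 and 5.99 against 17.7 and 37.4 CPM. Both AAV-Fgf7 libraries lay above both controls, at 2.33 times the control ear in rat 1 and 6.24 times in rat 2. The log2 fold change was 2.01 (SE 0.53) with an unadjusted edgeR p of 0.00892.

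Kif20a carries the chromosomal passenger complex to the spindle midzone before cleavage. Its counts were 2 and 5 with control virus and 13 and 24 with AAV-Fgf7, or 1.52 and 3.33 against 9.18 and 16.6 CPM. The groups did not overlap, and the within-rat ratios of 6.05 and 4.99 rest on those few control counts. Its log2 fold change was 2.35 (SE 0.68), at an unadjusted edgeR p of 0.0133. Kif20a passed the low-count filter through its AAV-Fgf7 libraries alone, so its place among the tested genes depended on the group in which it was high. Its gene model overlaps that of Cdc23 on the opposite strand, a gene with counts of 50 and 75 with control virus and 81 and 66 with AAV-Fgf7, and whether counting used strand is not given in the labels.

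Kif23 is the motor of centralspindlin, the complex that bundles midzone microtubules at cytokinesis, and its row is listed on mouse chromosome 9 from 61915905 to 61946774. Its counts were 23 and 20 with control virus and 27 and 55 with AAV-Fgf7, or 17.5 and 13.3 against 19.1 and 38.1 CPM. The AAV-Fgf7 library of rat 1 lay just above its control, at 1.09 times, and that of rat 2 at 2.86 times. The log2 fold change came to 0.89 (SE 0.46), with an unadjusted edgeR p of 0.102.

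Kif22 binds chromosome arms and pushes them away from the spindle poles, and its row is listed on mouse chromosome 7 from 127027729 to 127042471. It had counts of 12 and 7 against 13 and 25, or 9.11 and 4.66 CPM with control virus and 9.18 and 17.3 CPM with AAV-Fgf7. In rat 1 the ears were nearly equal (ratio 1.01), and the difference came from rat 2 (ratio 3.72). The log2 fold change came to 0.95 (SE 0.60), with an unadjusted edgeR p of 0.162.

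All 4 tested spindle kinesins thus had both AAV-Fgf7 values above both control values, where 14.8% of all tested genes did and 13.3% lay below both. The filter, which needs 2 libraries, helped to choose these 4 of 13 members. Kif23 passed it in both control libraries, Kif11 and Kif22 in 1 and Kif20a in 0. Kif11, Kif22 and Kif20a therefore needed their AAV-Fgf7 libraries to be tested. The median log2 fold change of the 4 was 1.48, beside -0.02 for all 6370 tested genes. In each of the 4 spindle kinesins the AAV-Fgf7 library of rat 2 held the highest level. That library also held the most Fgf7, at 989 CPM against 321 CPM in rat 1, and the highest sum of the basal keratinocyte list, at 3742 CPM. A relation of spindle kinesins to either was not tested. Without that library, the log2 fold changes were 1.37 for Kif11, 1.86 for Kif20a, 0.31 for Kif23 and 0.42 for Kif22. Fgf7, read as a check of the labels, stood at 71.4 and 73.2 CPM with control virus, so both AAV-Fgf7 libraries matched their label.

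The remaining spindle kinesins had few counts or none. Kif4, a chromosome-bound motor, had counts of 3 and 0 with control virus and 6 and 4 with AAV-Fgf7, and Kif15, which can stand in for Kif11 in keeping the spindle bipolar, had 3 and 1 against 3 and 1. Kif2c, a depolymerase at kinetochores, had at most 2 counts in a library, as did Kif18b, while Kif18a, Kif20b and Kif14 had at most 1. Kif2b and the minus-end motor Kifc1 had no counts. A count of 0 allows up to 3 counts, which is 1.87 to 2.31 CPM of the library totals. The 9 untested spindle kinesins together held 11 counts in the 2 control libraries and 20 in the 2 AAV-Fgf7 libraries. Without Kif11, Kif20a and Kif23, the 10 other members summed to 14.4 and 7.32 CPM with control virus and 17.7 and 22.8 CPM with AAV-Fgf7, a ratio of 1.86 carried mainly by Kif22.

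**Figure D2:**
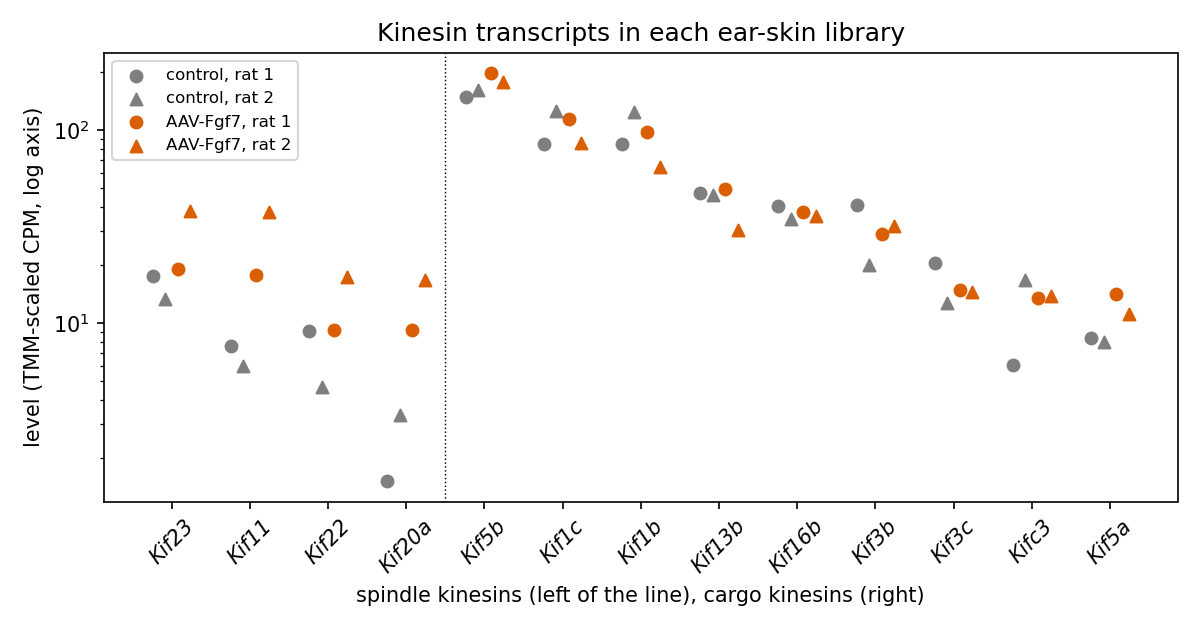
Level of each tested kinesin in the 4 libraries (TMM-scaled CPM, log axis); circles are rat 1, triangles rat 2, grey is control virus and orange AAV-Fgf7. For the 4 spindle kinesins on the left the orange points lie above the grey ones, closely so for Kif22 and Kif23 in rat 1, whereas most cargo kinesins on the right overlap.

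The promoters of the tested spindle kinesins shared sequence features. The sorting did not read promoters, but it drew on known roles in cell division, with which such features go. They therefore say nothing separate about the levels. Genes of late cell cycle phases often carry a cell cycle homology region (CHR, searched as TTTGAA or TTTAAA), which binds the MuvB complex, and near it CCAAT boxes (searched as CCAAT), which bind NF-Y. Both were sought on both strands in the 250 bases before the annotated start of rat genes, in RefSeq promoter sequences of the rat build GRCr8. The stretches of 130 bases that end just before the start are shown 5′ to 3′ for 3 tested spindle kinesins whose promoters hold both motifs, and for the cargo kinesin Kif1c as a contrast. Capitals mark CCAAT and CHR matches, which read ATTGG and TTCAAA where they lie on the other strand.
Kif11: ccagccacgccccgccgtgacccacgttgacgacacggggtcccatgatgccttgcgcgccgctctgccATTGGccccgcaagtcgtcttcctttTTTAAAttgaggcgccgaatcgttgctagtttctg
Kif23: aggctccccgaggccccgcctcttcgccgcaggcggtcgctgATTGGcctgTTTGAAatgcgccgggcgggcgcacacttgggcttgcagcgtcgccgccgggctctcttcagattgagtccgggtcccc
Kif22: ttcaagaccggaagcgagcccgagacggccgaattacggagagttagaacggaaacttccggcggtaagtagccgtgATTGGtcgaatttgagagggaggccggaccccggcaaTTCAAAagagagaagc
Kif1c: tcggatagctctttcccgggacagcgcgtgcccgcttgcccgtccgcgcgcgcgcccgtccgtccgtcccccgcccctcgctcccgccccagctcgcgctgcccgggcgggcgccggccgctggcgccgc
The Kif11 stretch is at chr1:244536737-244536866 on the plus strand, and its CHR match begins 35 bases before the start with a CCAAT match at 61. The Kif23 stretch is at chr8:71320585-71320714 on the minus strand, with matches at 79 (CHR) and 88 (CCAAT). The Kif22 stretch is at chr1:191080879-191081008 on the minus strand, with matches at 16 (CHR) and 53 (CCAAT). The Kif1c stretch is at chr10:55912963-55913092 on the plus strand and holds neither.

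Symbols of 29 of the 41 kinesins had a promoter sequence in that set. A CHR match was present in 8 of 10 spindle kinesins and 0 of 11 cargo kinesins, beside 25.4% of 33469 rat promoters searched over the same 250 bases. A CCAAT match was present in 6 of the 10 and 3 of the 11, beside 34.0% of all promoters. Both were present in 6 spindle kinesins, among them Kif11, Kif20a, Kif22, Kif23 and the uncounted Kifc1, and in 0 cargo kinesins, beside 9.04% of all promoters. Kif15 and Kif2c, which had few counts, also held a CHR match. Of the 8 cilium and other kinesins in the set, 1 (Kif26b) held a CHR match. A match is a run of letters, and no binding was measured.

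Of the cargo motors, Kif5b, the heavy chain of conventional kinesin found in most cells, was the most abundant kinesin. It had raw counts of 194 and 242 with control virus and of 278 and 255 with AAV-Fgf7, or 147 and 161 against 196 and 177 CPM. The groups did not overlap, but the difference was small, with a log2 fold change of 0.27 (SE 0.20) and an unadjusted edgeR p of 0.210. Its neuronal relative Kif5a had counts of 11 and 12 against 20 and 16, also without overlap (log2 fold change 0.62, SE 0.47). The third of these heavy chains, Kif5c, was untested with 4 and 3 against 5 and 6 counts. Kif5a and Kif5b were thus 2 of 9 tested cargo kinesins above both controls, beside 14.8% of all tested genes, and 0 of 9 lay below both.

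The vesicle motors Kif1c and Kif1b were next in counts. Kif1c stood at 85.0 and 125 CPM with control virus and at 114 and 85.9 CPM with AAV-Fgf7. Kif1b, which moves mitochondria and synaptic vesicle precursors, stood at 85.0 and 124 against 98.2 and 64.4 CPM. Both were highest in the control ear of rat 2, and the AAV-Fgf7 ear was above the control in rat 1 (ratios 1.35 and 1.15) and below it in rat 2 (0.686 and 0.520). Their log2 fold changes were -0.07 (SE 0.29) and -0.36 (SE 0.32). The skeletal muscle list was also highest in that control ear, at 52403 CPM against 13012, 27817 and 13949 CPM in the other control library and in rats 1 and 2 with AAV-Fgf7, and its part in these values was not tested.

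Kif16b, which moves early endosomes, varied least of the 13 tested between its highest and lowest CPM (40.2 and 34.6), with counts of 53 and 52 with control virus and 53 and 52 with AAV-Fgf7 and a log2 fold change of -0.03 (SE 0.29). Kif13b, a motor of membrane vesicles, had 62 and 69 against 70 and 44 counts (-0.22, SE 0.34). Of the motors that serve cilia as well as cytoplasmic transport, Kif3b had 54 and 30 against 41 and 46 counts (0.0028, SE 0.42) and Kif3c 27 and 19 against 21 and 21 (-0.17, SE 0.43). Their common partner Kif3a had 3 and 9 against 2 and 5 counts and was not tested. The minus-end motor Kifc3 had 8 and 25 against 19 and 20 counts (0.25, SE 0.57). In these 5 tested genes the groups overlapped. Over the 9 tested cargo kinesins 4 log2 fold changes were positive and 5 negative, with a median of -0.03.

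Of the 6 untested cargo kinesins, the neuronal motor Kif1a had 2 and 4 counts with control virus and 3 and 13 with AAV-Fgf7, and Kifc2 had 6 and 4 against 8 and 2. Kif13a had at most 3 counts in a library and Kif17 1 count in all. Among cilium kinesins, Kif7, the Hedgehog regulator at the cilium tip, had 8 and 7 against 10 and 4 counts, and Kif19a, which limits cilium length, 3 and 7 against 1 and 6. Kif24 had 1 count, and Kif6, Kif9 and Kif27 had none. In the remaining set, Kif2a, a microtubule depolymerase of neurons and spindles, had 2 and 4 against 2 and 7 counts. Kif21a had 0 and 0 against 2 and 3, Kif26b had 0 and 4 against 4 and 0, Kif21b had at most 3 counts and Kif26a 1, while Kif12 and Kif28 had none. These small counts allow no direction to be read for any of them.

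**Figure D3:**
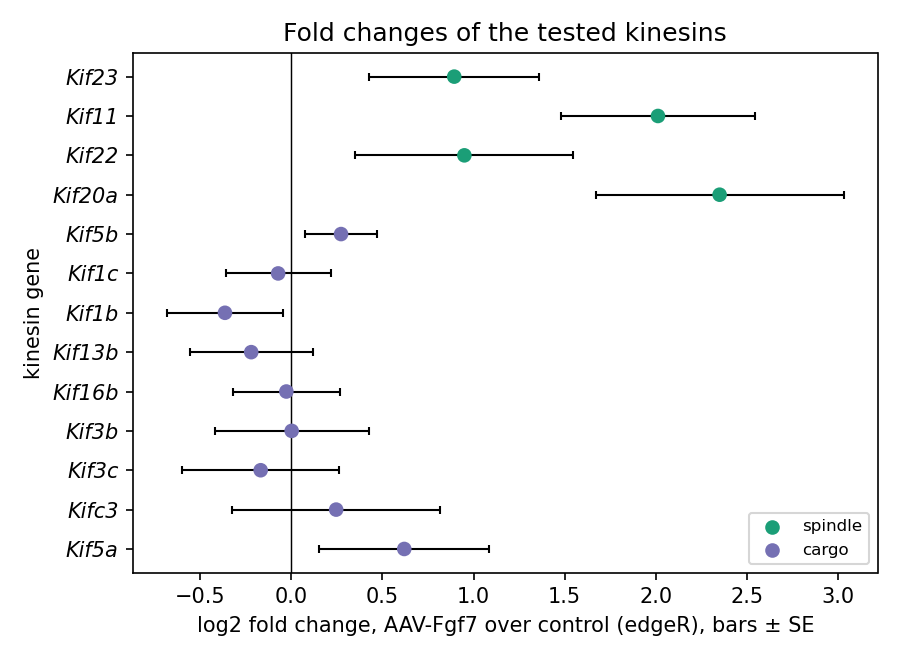
Log2 fold change of each tested kinesin, AAV-Fgf7 over control, from edgeR, with bars of 1 SE; green points are spindle and purple points cargo kinesins. The 4 spindle kinesins run from 0.89 to 2.35 and the 9 cargo kinesins from -0.36 to 0.62, and none passed the adjusted threshold.

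Per length of gene model, in the authors' FPKM (counts scaled by gene length and library total), the order over the 4 libraries was led by cargo kinesins. Kif5b stood at 20.5 ± 1.24 FPKM with control virus and 24.7 ± 1.81 with AAV-Fgf7 (SD, n = 2), and Kif1c at 14.2 ± 3.80 and 13.5 ± 2.69. The range of Kif5b over the libraries lay above that of Kif1c, and that of Kif1c above that of Kif3b, the third in order at a mean of 5.30 FPKM. From there down, through Kif1b, Kif16b, Kif11, Kif13b, Kif23, Kifc3, Kif3c, Kif22, Kif20a and Kif5a, each neighbour's range overlapped that of the next. Kif11 stood at 1.39 ± 0.235 FPKM with control virus and 5.60 ± 2.85 with AAV-Fgf7. Gene models are those of the mouse, so reads lost where rat and mouse differ may alter this order.

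Partners of the spindle kinesins were followed as a list of 36 genes, of which 23 had a count and 5 were tested. At an unadjusted edgeR p under 0.05, 2 were higher and 0 lower, beside 1.71% and 0.612% of all tested genes, and 0 passed after adjustment. Kpna2, an importin that also guides spindle assembly factors, had 1 and 0 counts with control virus and 16 and 17 with AAV-Fgf7, and Ccna2, cyclin A, had 7 and 9 against 19 and 33. Both entered the test through their AAV-Fgf7 libraries alone. The MuvB subunit Lin9 (log2 fold change 0.21, SE 0.41) and its partner E2f4 (0.49, SE 0.35) had smaller differences. The remaining tested partner, Plk1, had 10 and 0 against 5 and 11 counts (0.60, SE 1.23), with overlapping groups. Its value is the median of the tested partners. The sum of the list was 79.0 and 58.6 CPM with control virus and 99.6 and 157 CPM with AAV-Fgf7. The list had 13 genes at 0 in every library, among them the mitotic kinesin Cenpe, the kinases Aurka and Aurkb and Birc5, and Mki67, the usual marker of cycling cells, had 1 count in all. Counts of 0 under mouse gene models do not show that a transcript was absent.

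Kinesin light chains and cargo adaptors had 15 of 22 found genes tested, with 2 positive and 13 negative log2 fold changes and a median of -0.20. Of the 15, 6 lay below both controls, as did 13.3% of all tested genes, and 1 lay above. Fez1, an adaptor of neuronal transport, had counts of 13 and 46 with control virus and 11 and 6 with AAV-Fgf7 (log2 fold change -1.76, SE 0.70, unadjusted edgeR p of 0.0439). Mapk8ip3, which links kinesin to vesicles, had 126 and 147 against 102 and 73 (-0.66, SE 0.27), Rabep1 122 and 149 against 111 and 91 (-0.44, SE 0.25), and Mapk8ip1 155 and 300 against 201 and 108 (-0.55, SE 0.39). None of the 15 passed after adjustment. The nerve fibre list, with Scn9a at 0, summed to 1199 and 1294 CPM with control virus and 1095 and 1383 CPM with AAV-Fgf7, so the groups overlapped. The light chain and adaptor list itself summed to 894 and 1096 CPM with control virus and 912 and 746 CPM with AAV-Fgf7. It was highest in the control library of rat 2, as were the skeletal muscle and cartilage lists, and their part in the adaptor values was not tested.

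The opposite motor, dynein, and its activator dynactin had 19 of 30 genes tested, with 13 positive and 6 negative values and a median of 0.07, and 4 lay above both controls and 0 below, beside 14.8% and 13.3% of all tested genes. Dctn5, a dynactin subunit, had counts of 72 and 75 against 98 and 123 (log2 fold change 0.56, SE 0.27), and Dynll1, a light chain shared with other complexes, had 292 and 470 against 517 and 511 (0.43, SE 0.23). Of the tubulins, from which the tracks are built, 10 of 15 were tested with a median of 0.30, and 4 lay above both controls and 0 below, beside the same shares of all tested genes (14.8% and 13.3%). Tubb6 had counts of 163 and 180 with control virus and 292 and 301 with AAV-Fgf7 (0.77, SE 0.19, unadjusted edgeR p of 0.00646), and Tuba4a had 277 and 385 against 481 and 672 (0.79, SE 0.24, unadjusted edgeR p of 0.0157). Tubulin genes are close copies of each other and can exchange reads. None of the dynein, dynactin or tubulin genes passed after adjustment.

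**Figure D4:**
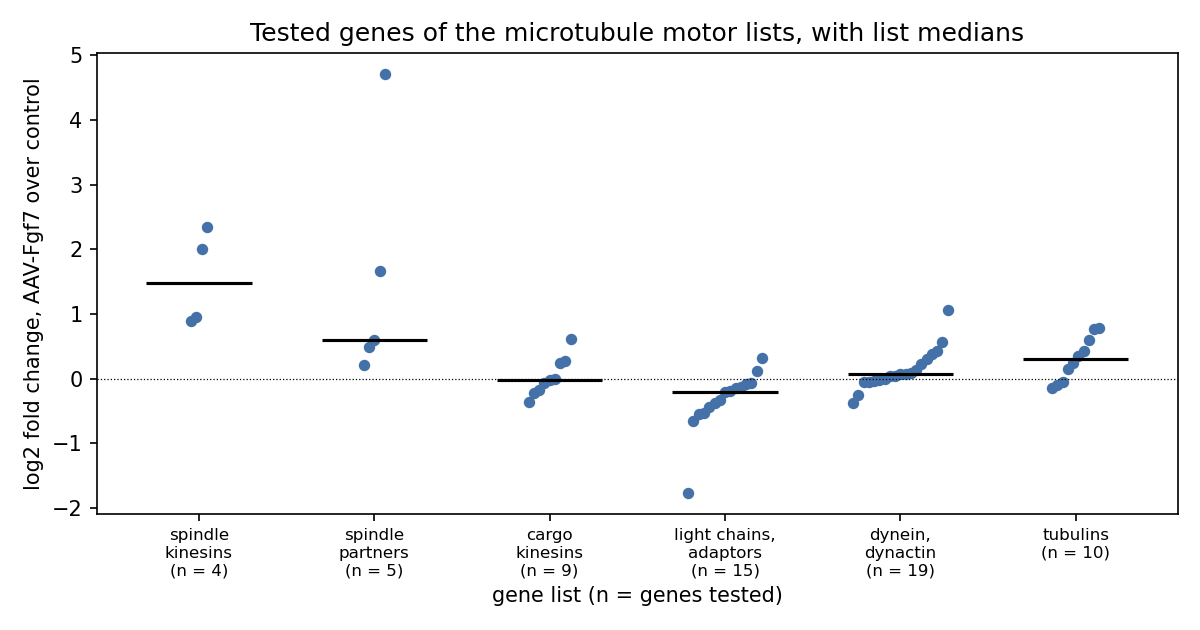
Log2 fold change, AAV-Fgf7 over control, of each tested gene in 6 lists of microtubule motors, partners and tracks; black lines are list medians. The medians run from 1.48 for spindle kinesins and 0.60 for their partners to -0.03 for cargo kinesins and -0.20 for light chains and adaptors. They cover tested genes only, 4 of 13 spindle kinesins and 5 of 36 partners. The low-count filter passed 1 of these 4 and 2 of these 5 through their AAV-Fgf7 libraries alone. Kif11, Kif22 and the partner Plk1 passed it in 1 control library each, fewer than the 2 it needs.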

How the data were processed

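Gene counts and FPKM for 4 libraries of rat ear skin (2 rats, both ears) were analysed. The authors deposited raw counts per gene, and FPKM per gene for the same rows; per the submitters' processing notes the build was Rnor_6.0 (rn6), while no aligner or counter is given in the sources used here. The deposited rows carry mouse identifiers, 0 of the 41 kinesin identifiers and 38 of their symbols occurred in a RefSeq rat gene table, and 3 kinesin pseudogene rows had no counts. Libraries were filtered with filterByExpr (about 7.02 CPM in at least 2 libraries) and scaled by TMM, and groups were compared with edgeR 4.0.16 (quasi-likelihood, two-sided) in R 4.3.3, without a block, with Benjamini-Hochberg adjustment over 6370 genes at 0.05. SE is the log2 fold change over the root of F. On simulated data of 6370 genes, 147 of 200 genes changed by a log2 size of 2 were called, as were 3 unchanged genes. Every simulated gene had the same coefficient of biological variation (29.1%), unlike real genes. The simulation therefore checks the fit and does not give the power in these libraries. DESeq2 1.42.0, limma 3.58.1, other scalings, filters and leave-one-out fits were alternatives. Same-numbered libraries were taken to come from the same rat, by the sample titles. The second AAV-Fgf7 column was assigned by its number, because the description of its sample repeats the name of the first AAV-Fgf7 column. The within-rat ratios rest on this pairing. The deviations of same-numbered libraries from the group means correlated at r = -0.30 (Spearman -0.26) across genes, which are not independent replicates. Libraries alike within a rat would give a positive value. Kinesins and lists were chosen with earlier results of these data known. Named were all tested kinesins, the untested ones by their counts, and from the other lists up to 4 tested genes of lowest p, plus Cenpe and Plk1. P-values of the main fit measure the spread between the 2 libraries of each group, with information shared across genes. They do not use the pairing of ears within rats.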

Additional observations from a re-analysis of the deposited data

How the results depend on the processing

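The count of 0 called kinesins held under every alternative, with 2 at an unadjusted p under 0.05 in each fit except 0 without the AAV-Fgf7 library of rat 2 and 3 without that of rat 1. Over all genes the count of 0 became 3 without a filter and 4 with DESeq2, and 0 to 19 when 1 library was left out; the 19, without the control library of rat 1, rest on a lone control. With rat as a replicate block, edgeR called 0 genes (75 at an unadjusted p under 0.05) and changed no call on a kinesin, with Kif11 at a log2 fold change of 1.94 and Kif20a at 2.39. A crossed block, chosen after seeing the data, also called 0 genes (301 at an unadjusted p under 0.05). The summed spindle log2 ratio of 1.33 ranged from 0.84 (without the AAV-Fgf7 library of rat 2) to 1.70, and was 1.47 in FPKM and 0.90 without Kif11, Kif20a and Kif23, a setting chosen after seeing the data. The spindle median of 1.48 ranged from 0.90 to 1.90 with a library left out, and was 1.00 with log2(FPKM + 1) and 0.95 without a filter. The cargo median of -0.03 ranged from -0.064 to 0.088 with a library left out. Kif11, Kif20a, Kif22, Kif23, Kif5a, Kif5b and Kif1b kept their direction in all 13 alternatives. Kif3b changed sign with RLE factors (-0.0038), without a filter (-0.00080) and with DESeq2 (-0.0056), and Kif16b with library totals (0.012). With a library left out, signs changed for Kif3b (-0.43 to 0.60), Kif16b (-0.13 to 0.085), Kif1c (-0.32 to 0.24), Kif13b (-0.60 to 0.088), Kif3c (-0.48 to 0.21) and Kifc3 (-0.29 to 1.16); in these fits 1 group has 1 library, which is assumed to vary like the rest, and the cause was not tested. Depth limits these values: the tested spindle kinesins had 2 to 55 counts in a library, and 21 kinesins with counts could not be tested.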
